A study of Mus musculus with 6 samples.

Results

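The cytosolic ribosomal protein genes are described here in mouse heart RNA, as 89 of the 26835 genes listed. Members were chosen by symbol (Rpl or Rps followed by a number, Rplp0, Rplp1, Rplp2 and Rpsa), leaving out symbols with -ps, 6k or bp, and by a mean level of at least 1 FPKM over the 6 libraries. FPKM is a level scaled for transcript length and library size. Of 90 genes that matched the symbols, Rpl39l lay below that minimum at 0.0828 FPKM, and the lowest gene kept was Rpl32l at 1.99 FPKM. The set holds 53 large subunit and 36 small subunit genes. In the annotation 83 are protein coding and 6 (Rps3a2, Rps3a3, Rps4l, Rpl37rt, Rpl6l and Rpl32l) are typed as pseudogenes. All 89 passed the filter for the tests, which was the same level of 1 FPKM and left 10329 genes.

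The libraries come from hearts of C57BL/6 mice of wild-type genotype, 7 to 8 weeks old and weighing 20 g ± 2, with 2 libraries in each of 3 groups. CFZ mice were injected intraperitoneally with carfilzomib at 8 mg/kg. CFZ_EA mice received the same carfilzomib dose and electroacupuncture at the point PC6. Control mice were injected with 10% DMSO. The labels of all 3 groups list days 0, 2, 4 and 6 as the time. Carfilzomib is an irreversible proteasome inhibitor used against multiple myeloma that can harm the heart, and electroacupuncture passes a current through acupuncture needles. The labels do not say whether the libraries of a group came from separate mice or pools, and p-values here therefore reflect library-to-library spread alone, which may be technical. In bulk tissue, fewer cells of a type and less RNA per cell cannot be told apart.

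Each cytosolic ribosome pairs a large subunit, which joins amino acids, with a small subunit, which decodes the messenger RNA. The proteins are made in matching amounts, and subunits left unassembled are degraded by the proteasome, the enzyme that carfilzomib blocks. Messenger RNAs of ribosomal proteins typically begin with a 5′ terminal oligopyrimidine (TOP) tract, a C followed by a run of C and T bases, through which the mTOR pathway and the RNA-binding protein Larp1 control their translation. Some members have paralogs with narrower expression, among them Rpl3l, the striated muscle form of Rpl3.

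The annotated transcript starts that follow show runs of C and T at or near the start, for members on which later results turn. A marked run need not be the tract, since it may begin with T or lie beside the start. Each line gives 30 bases on the gene's strand, 10 before and 20 from the RefSeq start of GRCm38.p6, 5′ to 3′. Capitals mark the longest unbroken run of C and T that overlaps the 5 bases before to 5 after the start, as far as it lies in the window.
Rps6 (chr4:86857348-86857377, minus strand): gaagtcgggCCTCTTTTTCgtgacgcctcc
Rplp2 (chr7:141447641-141447670, plus strand): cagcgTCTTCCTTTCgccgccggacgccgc
Rps10 (chr17:27635225-27635254, minus strand): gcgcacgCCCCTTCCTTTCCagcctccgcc
Rpl7a (chr2:26910797-26910826, plus strand): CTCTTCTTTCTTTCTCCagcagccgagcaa
Rps2 (chr17:24720053-24720082, plus strand): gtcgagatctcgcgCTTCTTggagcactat
Rpl22l1 (chr3:28805498-28805527, plus strand): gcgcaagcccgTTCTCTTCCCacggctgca
Rplp0 (chr5:115559457-115559486, plus strand): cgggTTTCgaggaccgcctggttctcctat
Rps25 (chr9:44407704-44407733, plus strand): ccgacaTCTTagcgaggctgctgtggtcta
Rpl3l (chr17:24727816-24727845, plus strand): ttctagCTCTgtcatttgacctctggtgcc
The first 6 have runs of at least 6 bases, with 10 in Rps6, Rplp2 and Rpl22l1, 13 in Rps10, 21 in Rpl7a and 6 in Rps2. The last 3 have runs of 4 bases. In Rps2 and Rpl22l1 the marked run begins after the annotated start, and in Rplp2, Rpl22l1, Rplp0 and Rps25 it begins with T.

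A RefSeq start was given for 65 of the 89 members. A run of 6 or more C or T bases on the gene's strand in that place was found in 33 of them (50.8%), against 24% of the tested genes with a start and 23.0% of all genes in the same table. A run of 8 or more was found in 25 members (38.5%), against 12.3% of tested genes and 11% of all genes. The median mean level was 106 FPKM over the 33 members with a run of 6 and 87.3 FPKM over the 32 without. The median log2 fold changes given later were alike in sign for both sets, at -0.01 with and -0.02 without a run for CFZ against control. Lack of a run says only that these letters are not in this window around this annotated start. Presence of a run was not shown to be a TOP tract.

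Ribosomal protein messages were abundant in every heart library. The median member had a mean of 99.3 FPKM, against 4.66 FPKM for all tested genes, and 51 members were among the 500 highest genes. Rplp1, a protein of the stalk that recruits elongation factors, was highest at a mean of 1025 FPKM. It had 969 and 1051 FPKM in CFZ hearts, 897 and 965 FPKM in CFZ_EA hearts and 910 and 1357 FPKM in control hearts, so that control replicate 2 stood above the rest. Next were Rps15 of the small subunit head at 868 FPKM, the stalk base Rplp0 at 680 FPKM, Rpl36 of the large subunit at 679 FPKM and Rps2, near the mRNA entry channel, at 425 FPKM. The 5 lowest means belonged to Rpl22l1 (4.30 FPKM), Rps3a2 (3.9 FPKM), Rps3a3 (2.25 FPKM), Rpl32l (1.99 FPKM) and Rpl21 (10.4 FPKM), 3 of which are typed as pseudogenes. In all, 9 members lay above 300 FPKM, 35 between 100 and 300, 41 between 10 and 100 and 4 below 10.

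**Figure D1:**
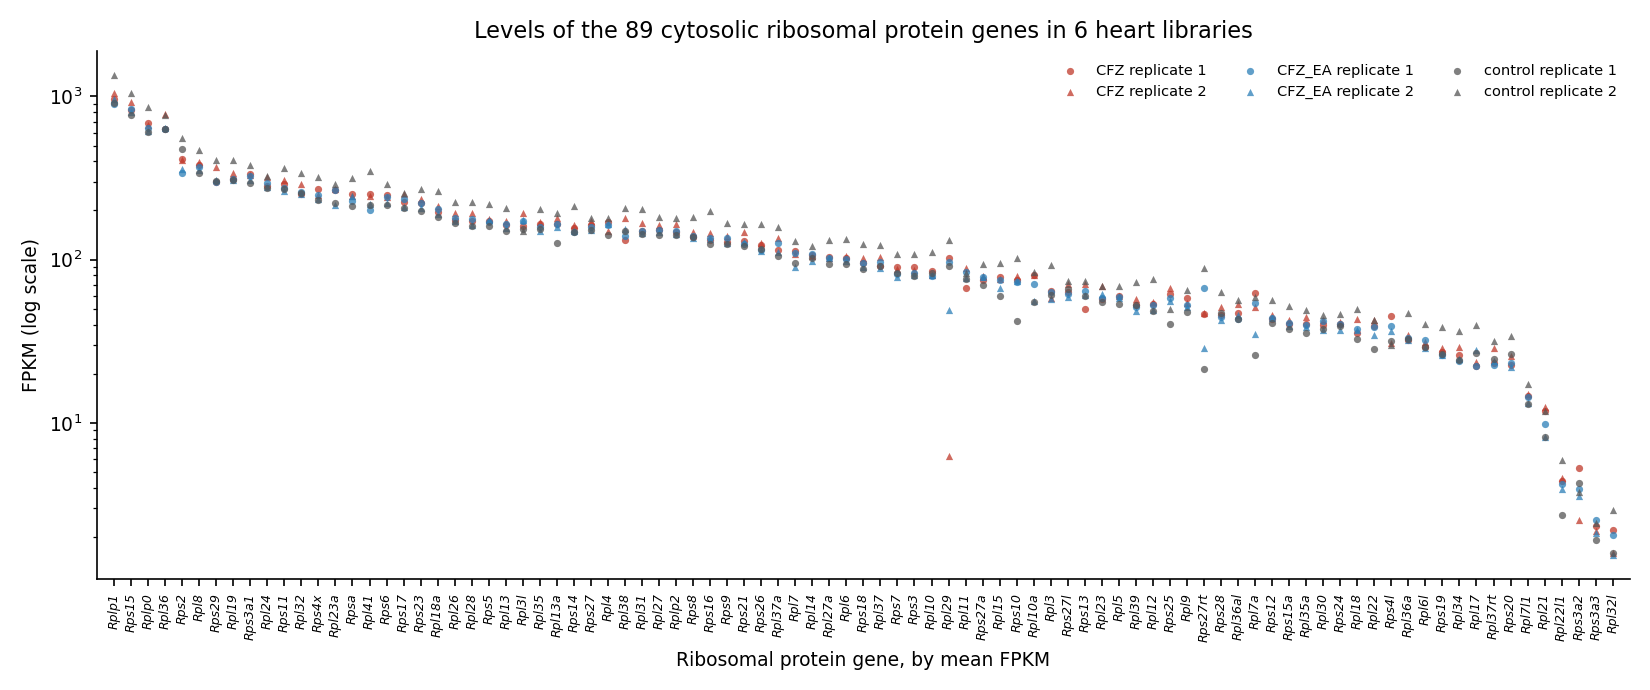
Levels of the 89 ribosomal protein genes in FPKM on a log axis, ordered by their mean over 6 libraries, with 1 point per library (circles replicate 1, triangles replicate 2; red CFZ, blue CFZ_EA, grey control). Control replicate 2 lies on top for 80 genes, and Rpl29 in CFZ replicate 2 stands far below its other points.

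The order of the members was nearly the same in all libraries: Spearman's rho of FPKM across the 89 genes ran from 0.972 to 0.996 over the 15 pairs of libraries, as a description across genes that share each library. Small subunit genes took 40.9% to 41.3% of the members' summed FPKM in each library. The 9 highest members together took 35.9% to 37.8% of it.

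The summed level set 1 control library apart. Members summed to 13244 and 14051 FPKM in CFZ hearts, 12963 and 12536 FPKM in CFZ_EA hearts, and 12280 and 16738 FPKM in control hearts. As a share of all FPKM of nuclear genes this was 3.76% and 3.82% in CFZ, 3.67% and 3.53% in CFZ_EA, and 3.41% and 4.46% in control. The 2 control libraries were thus the lowest and the highest of the 6, with the second 1.36 times the first, and both treated groups lay between them. With 2 libraries against 2, an exact test cannot give a two-sided p below 0.333, so no test was made of this sum.

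The same split was seen gene by gene. Control replicate 2 was the highest library for 80 of 89 members in FPKM and for 61 in CPM, counts relative to the library total, scaled by TMM factors, which align libraries on the bulk of their genes. It was the highest for 40.7% and 28.4% of all tested genes on these scales. Control replicate 1 was the lowest library for 50 members in FPKM and 45 in scaled CPM, against 15.3% and 12.9% of all tested genes. The median member, as log2 scaled CPM minus its own mean over the 6 libraries, stood at -0.07 and 0.11 in CFZ, at -0.04 and -0.07 in CFZ_EA and at -0.13 and 0.20 in control. The median of all tested genes on that scale lay between -0.01 and 0.01 in each library.

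**Figure D2:**
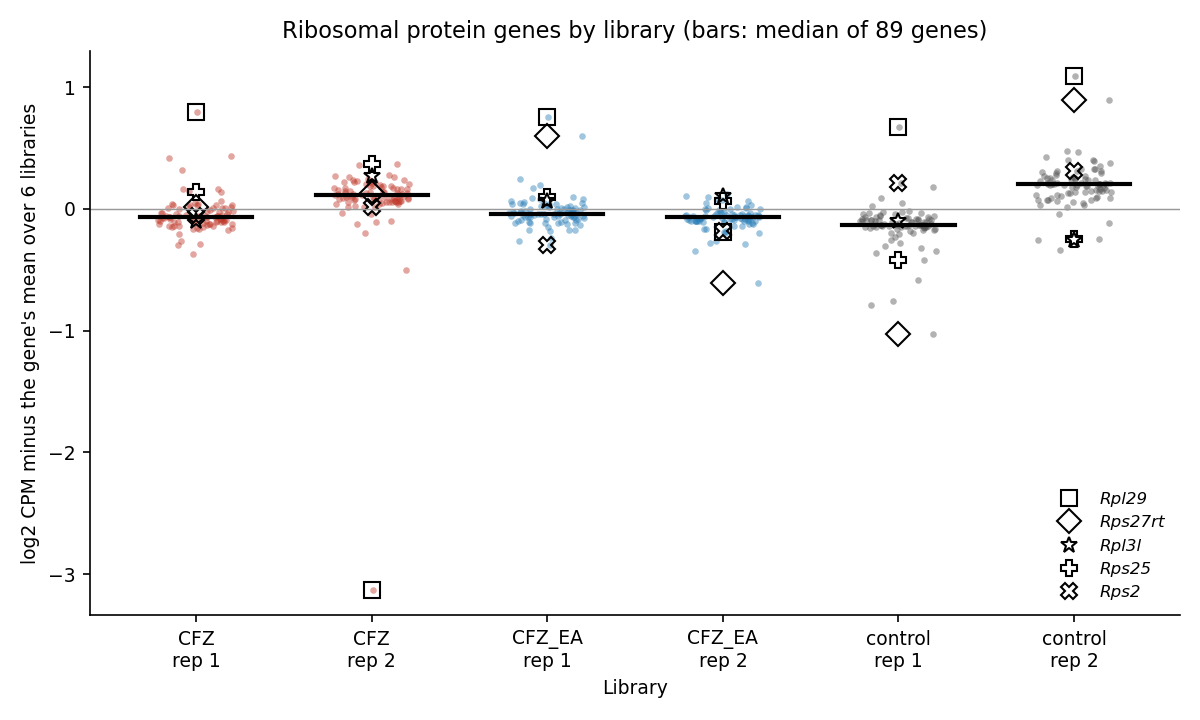
Each point is 1 of 89 ribosomal protein genes, as log2 scaled CPM minus the gene's mean over 6 libraries, by library; black bars are library medians and open symbols mark 5 named genes. The medians run from -0.13 in control replicate 1 to 0.20 in control replicate 2, and Rpl29 in CFZ replicate 2 lies lowest.

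Control replicate 2 also stood apart in other ways. It had the fewest counts (50013990, against 57360755 to 75742448 in the others) and the lowest mitochondrial share of counts (14.8%, against 17.9% to 21.3%). Several lists of cell type markers moved with it. All 12 fibroblast markers were highest in it, with summed levels of 635 and 550 FPKM in CFZ, 827 and 833 in CFZ_EA and 788 and 1727 in control replicates 1 and 2. All 14 macrophage markers were highest in it too, with sums of 254 and 288 FPKM in CFZ, 253 and 297 in CFZ_EA and 333 and 970 in the 2 controls. The 9 epicardial and 6 erythroid markers were likewise all highest in it. Epicardial sums were 5.11 and 4.42 FPKM in CFZ, 5.63 and 14.1 in CFZ_EA and 23.3 and 57.1 in control. None of the 14 cardiomyocyte markers, the defining genes of the labelled tissue, was highest in it, and their sums were 32811 and 34247 FPKM in CFZ, 32678 and 29949 in CFZ_EA and 29856 and 27978 in control. The 10 atrial markers summed to 350 and 216 FPKM in CFZ, 983 and 5745 in CFZ_EA and 2872 and 1629 in control. In other lists only part of the genes were highest in it: 4 of 12 endothelial markers, 5 of 9 of smooth muscle and pericytes and 2 of 8 of lymphocytes. Smooth muscle and pericyte sums still stood out there, at 196 and 185 FPKM in CFZ, 170 and 217 in CFZ_EA and 190 and 339 in control. Endothelial sums were 246 to 286 FPKM in the other libraries and 304 in control replicate 2. No marker of these 9 lists was at 0 in all libraries, and the part of cell makeup in the ribosomal protein values was not tested.

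Members moved together between libraries. The median standard deviation over the 6 libraries was 0.15 on the log2 CPM scale, against 0.19 for all tested genes without matching for level. After the median member of each library was subtracted, it was 0.08. By then 62 members had a standard deviation under 0.1 and 6 one over 0.3: Rpl29, Rps27rt, Rpl7a, Rps3a2, Rps4l and Rps10. Rps3a2 and Rps4l are typed as pseudogenes. Rps27rt, on chromosome 9 at 114982366 to 114982739 of GRCm38, has 1 exon and a coding sequence identical to that of Rps27 over its full length, so reads cannot be assigned surely between them. Its levels of 46.2 and 46.9 FPKM in CFZ, 67.3 and 28.6 in CFZ_EA and 21.5 and 89.4 in control overlapped between groups. Assignment is uncertain in the same way between Rpl37 and Rpl37rt (99.7% identical), Rpl6 and Rpl6l (98.7%), Rpl32 and Rpl32l (96.0%), and Rps3a1 and its copies Rps3a2 (99.5%) and Rps3a3 (99.0%).

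Rpl29, a large subunit protein without which mice are viable but small, varied most. It had 103 and 6.30 FPKM in CFZ hearts, 97.2 and 49.5 FPKM in CFZ_EA hearts and 91.0 and 133 FPKM in control hearts. The low value belongs to CFZ replicate 2 alone, where 494 counts were listed, against 4624 to 8236 in the others. Sequence copies of Rpl29 elsewhere in the table held 59.3 scaled CPM in that library and 42.1 to 56.7 in the others, while Rpl29 itself had 8.26 there and 63.6 to 154 in the others. The log2 fold change of Rpl29 for CFZ against control was -1.01 ± 1.06 (SE, adjusted p = 0.816, edgeR), and it was -0.10 without CFZ replicate 2 and -4.03 without CFZ replicate 1.

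The comparison of CFZ with control asks how carfilzomib alters the heart's transcriptome. In edgeR's quasi-likelihood test no member passed an adjusted p of 0.05, when 0.029% of all tested genes did (3 genes, all lower in CFZ). At an unadjusted p under 0.05, 1 member was higher and none lower, against 1.82% and 5.9% of tested genes. The members' median log2 fold change was -0.02 (all tested genes -0.0034), with 36 of 89 above 0 (49.5% of all tested genes). The values were close together: 77 members lay within 0.25 of 0 (86.5%, against 66.8% of tested genes), with a median standard error of 0.16. These shares were not matched for level, and the median level was 99.3 FPKM for members and 4.66 FPKM for all tested genes. Small subunit genes had a median of -0.03 and large subunit genes of -0.01. In scaled CPM, both CFZ libraries were above both controls in 4 members (18.4% of tested genes) and below both in 4 (18.7%). This median depended on single libraries of both groups. It was 0.14 with 82 members above 0 when control replicate 2 was left out, and -0.17 with 15 above 0 when control replicate 1 was left out. Without CFZ replicate 1 it was 0.06 with 65 above 0, and without CFZ replicate 2 it was -0.11 with 18. With no filter on low values it was 0.03 with 56 above 0.

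Rps25 was the member with an unadjusted p under 0.05. This small subunit protein, which is needed for initiation at several viral internal ribosome entry sites, lies on chromosome 9 at 44407139 to 44410427 (plus strand, GRCm38). Its levels were 61.6 and 67.5 FPKM in CFZ hearts, 58.4 and 55.6 FPKM in CFZ_EA hearts and 40.2 and 49.7 FPKM in control hearts. Both carfilzomib-treated groups lay above both control libraries. The log2 fold change for CFZ against control was 0.59 ± 0.13 (SE, adjusted p = 0.608, edgeR). The value stayed between 0.47 and 0.70 over 19 alternatives, with adjusted p from 0.0160 to 0.866. DESeq2's Wald test, the source of the smallest, called it and no other member. The gene overlaps Trappc4 and Ccdc84 on the other strand, and reads cannot be told apart where counting ignored strand. Trappc4 had 10.2 and 12.7 FPKM in CFZ and 11.6 and 14.3 in control (log2 fold change -0.11 ± 0.19, adjusted p = 0.890, edgeR), below the level of Rps25.

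After Rps25, the members with the highest log2 fold changes for CFZ against control were Rpl7a, Rpl21, Rps4l and Rpl10a. With pseudogene copies added to their parents, Rpl7a was at -0.02 and Rpl21 at 0.12. Rpl10a, a protein of the L1 stalk, had 80.7 and 80.6 FPKM in CFZ hearts and 55.3 and 84.0 FPKM in control hearts, and its value was 0.28 ± 0.19 (SE, adjusted p = 0.729). Control replicate 2 thus exceeded both CFZ libraries in FPKM, and the groups separated after TMM scaling. Rpl21 had 11.8 and 12.6 FPKM in CFZ and 8.17 and 11.9 in control, with a value of 0.35 ± 0.18 (adjusted p = 0.679). The fold changes of Rpl7a (0.49) and Rps4l (0.34) had adjusted p-values of 0.739 and 0.681 in the same edgeR fit. The lowest values after Rpl29 belonged to Rpl17 at -0.47 (adjusted p = 0.650), Rps2 at -0.28 (0.651), Rpl3 at -0.26 (0.722) and Rps20 at -0.26 (0.694).

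**Figure D3:**
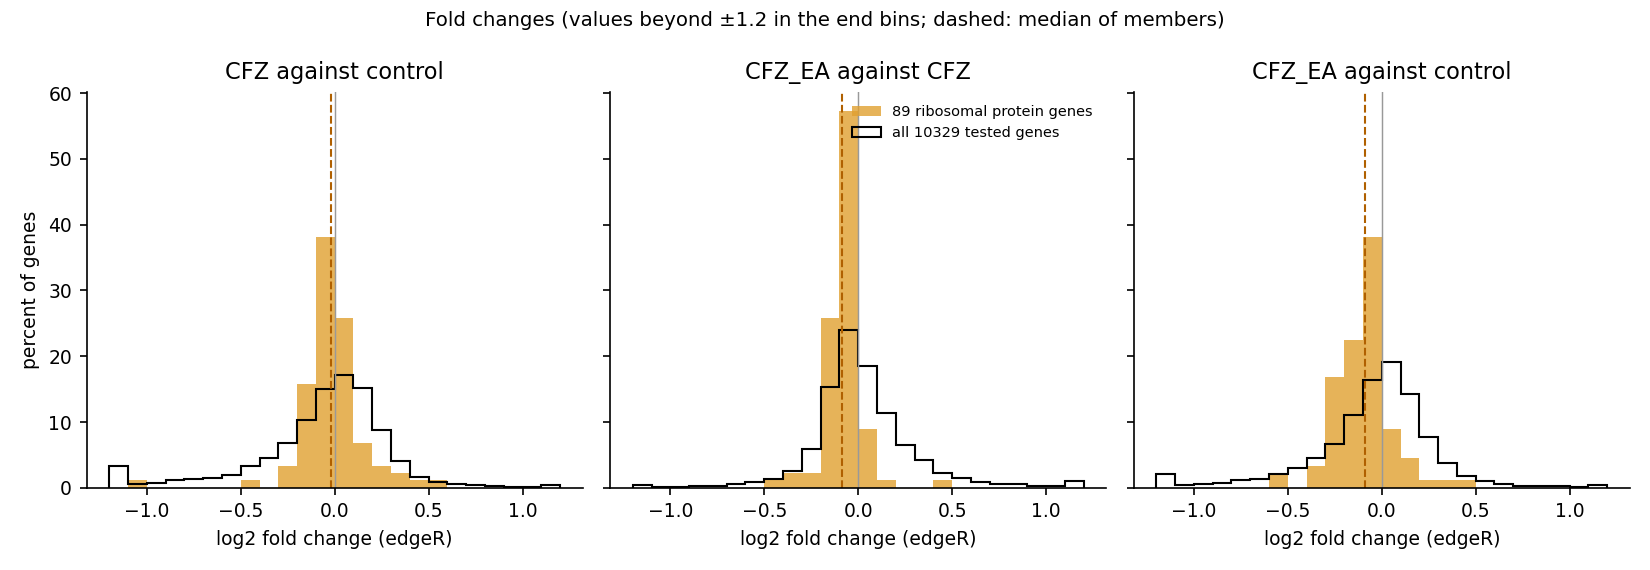
Share of genes in percent by log2 fold change (edgeR, bins of 0.1) for the 89 ribosomal protein genes (filled) and all 10329 tested genes (line) in each comparison; dashed lines are the members' medians. Without matching for level, the members form a narrower peak than all genes, centred at -0.02, -0.09 and -0.09.

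The comparison of CFZ_EA with CFZ asks how electroacupuncture alters expression in carfilzomib-treated mice. No member passed in edgeR at an adjusted p of 0.05 (0.0194% of all tested genes) and none at an unadjusted p under 0.05 (2.01% of tested genes higher, 1.07% lower). DESeq2 and limma called none either. The median log2 fold change was -0.09 (all tested genes -0.01), with 10 of 89 above 0 (48.1% of tested genes). In scaled CPM, no member had both CFZ_EA libraries above both CFZ libraries (16.7% of tested genes), and 18 had both below (16.7%), which is 20.2% of the members. Among these 18 were Rplp0, Rps6, Rps3, Rps2, Rpl10, Rps25 and the paralogs Rpl22l1 and Rps27l. This median rested on CFZ replicate 2: it was 0.02 with 53 members above 0 when that library was left out and -0.17 with 8 when CFZ replicate 1 was. Without CFZ_EA replicate 2 it was -0.06 with 16 above 0.

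Single members had small fold changes here. Rpl21 was lowest, with 9.88 and 8.18 FPKM in CFZ_EA and 11.8 and 12.6 FPKM in CFZ (log2 fold change -0.43 ± 0.18, SE, adjusted p = 0.9997, edgeR). With its pseudogene copies, which held most counts of its family, Rpl21 was at -0.13, and Rpl10a was then lowest at -0.34. Rps6, whose phosphorylation by the S6 kinases is a readout of mTOR signalling, had 241 and 224 FPKM in CFZ_EA and 249 and 241 FPKM in CFZ (-0.07 ± 0.14). The other low values were those of Rpl10a (-0.34), Rpl7a (-0.34), Rpl41 (-0.23) and Rps2 (-0.22). Highest after Rpl29 (0.47 ± 1.05) were Rpl17 (0.15), Rps3a3 (0.06), Rps13 (0.05) and Rpl11 (0.05). All of these members had the same adjusted p of 0.9997 in edgeR.

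The comparison of CFZ_EA with control shares its libraries with the other comparisons. No member passed in edgeR (0% of tested genes passed), and at an unadjusted p under 0.05 Rps25 was higher and Rps2 lower (1.47% and 3.66% of tested genes). The median log2 fold change was -0.09 (all tested genes -0.0013), with 15 of 89 above 0 (49.7% of tested genes). In scaled CPM, both CFZ_EA libraries were above both controls in 4 members (16.6% of tested genes) and below both in 10 (17.8%). Without control replicate 2 the median was 0.06 with 67 above 0, and without control replicate 1 it was -0.25 with 6. Without CFZ_EA replicate 2 it was -0.07 with 25.

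Rps2, a small subunit protein that reaches the ribosome with the help of the chaperone Pdcd2, was lowest in CFZ_EA hearts. It lies on chromosome 17 at 24718116 to 24721926 (plus strand, GRCm38). Its levels were 412 and 405 FPKM in CFZ hearts, 339 and 359 FPKM in CFZ_EA hearts and 479 and 559 FPKM in control hearts, so that the 3 groups did not overlap. The log2 fold change was -0.50 ± 0.12 for CFZ_EA against control (SE, adjusted p = 0.848, edgeR) and -0.28 ± 0.12 for CFZ against control (adjusted p = 0.651). Over 19 alternatives CFZ_EA against control gave -0.58 to -0.38, with adjusted p from 0.0117 to 1. DESeq2's Wald test, the source of the smallest, called it and no other member. Pseudogene copies held 19.5% of the counts of the Rps2 family. With these copies added the value was -0.38, and the gene also overlaps Snora64 on its strand and Snora78 and Snhg9 on the other. Pdcd2 itself had 2.53 and 2.47 FPKM in CFZ and 1.95 and 2.08 FPKM in control (log2 fold change 0.36 ± 0.18, adjusted p = 0.671).

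Rps25 for CFZ_EA against control was at 0.41 ± 0.13 (SE, adjusted p = 0.848, edgeR). Next highest were Rps4l (0.36), Rpl3l (0.26), Rps3a3 (0.16) and Rpl7a (0.15). The lowest besides Rps2 were Rpl29 (-0.54 ± 1.05), Rpl41 (-0.35), Rps20 (-0.34) and Rpl17 (-0.32), all with adjusted p-values of at least 0.848 in edgeR.

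Rpl5 and Rpl11, which with 5S rRNA bind the p53 ligase Mdm2 when assembly fails, had log2 fold changes of 0.03 ± 0.12 and 0.03 ± 0.17 for CFZ against control (SE). Rpl11 had 67.3 and 88.4 FPKM in CFZ, 83.9 and 77.4 in CFZ_EA and 76.5 and 82.9 in control. Rpl5 had 60.0 and 59.9 FPKM in CFZ, 59.0 and 58.3 in CFZ_EA and 53.6 and 68.7 in control. The stalk proteins Rplp0, Rplp1 and Rplp2 were at -0.06 ± 0.16, -0.10 ± 0.18 and 0.04 ± 0.14 in the same comparison, and Rpsa, also known as the laminin receptor precursor, was at -0.02 ± 0.17.

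Rpl3l was the more abundant gene of its pair in every library. It had 160 and 192 FPKM in CFZ hearts, 173 and 175 FPKM in CFZ_EA hearts and 153 and 150 FPKM in control hearts. Rpl3, its ubiquitous partner, had 64.0 and 58.2 FPKM in CFZ, 63.6 and 57.6 in CFZ_EA and 60.6 and 92.9 in control. Rpl3l thus made up 71.4% and 76.7% of the pair in CFZ, 73.1% and 75.2% in CFZ_EA and 71.7% and 61.8% in control. Both CFZ_EA libraries and the second CFZ library were above both controls, and control replicate 2 was far below all others. The log2 fold changes of Rpl3l were 0.27 ± 0.15 for CFZ and 0.26 ± 0.15 for CFZ_EA against control (SE, adjusted p = 0.695 and 0.848, edgeR). It was among the 9 members for which another library was highest in FPKM. In control replicate 2 it stood at -0.45 log2 relative to the median member, the lowest value after that of Rps4l (-0.54). Cardiomyocyte markers were also lowest in that library, as given above, and whether they account for this was not tested. Coding sequences of Rpl3l and Rpl3 share 73.1% of aligned bases, and no pseudogene copy of Rpl3l was found.

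Shares of the other pairs varied less in percentage points, though not always in proportion. Rpl36al made up 59.2% and 60.7% of its pair with Rpl36a in CFZ, 56.5% and 58.9% in CFZ_EA and 57.2% and 54.7% in control. Rps27l, a target of p53, made up 28.1% and 29.0% of its pair with Rps27 in CFZ, 27.9% and 28.2% in CFZ_EA and 30.1% and 29.4% in control. Rpl7l1 held 11.5% to 12.7% of its pair with Rpl7 and Rpl22l1 held 8.79% to 12.2% of its pair with Rpl22 over the 6 libraries. Rps4l, typed as a pseudogene, held 14.2% and 11.1% of its pair with Rps4x in CFZ, 13.7% and 13.4% in CFZ_EA and 12% and 8.61% in control. Rpl39l held at most 0.335% of its pair with Rpl39 and was not tested. It had 0 counts in both CFZ libraries, 0 and 8 in CFZ_EA and 8 and 12 in control. The floor of 3 counts was 0.0461 and 0.0473 CPM in CFZ. None of the tested genes of these pairs passed in any comparison with edgeR.

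**Figure D4:**
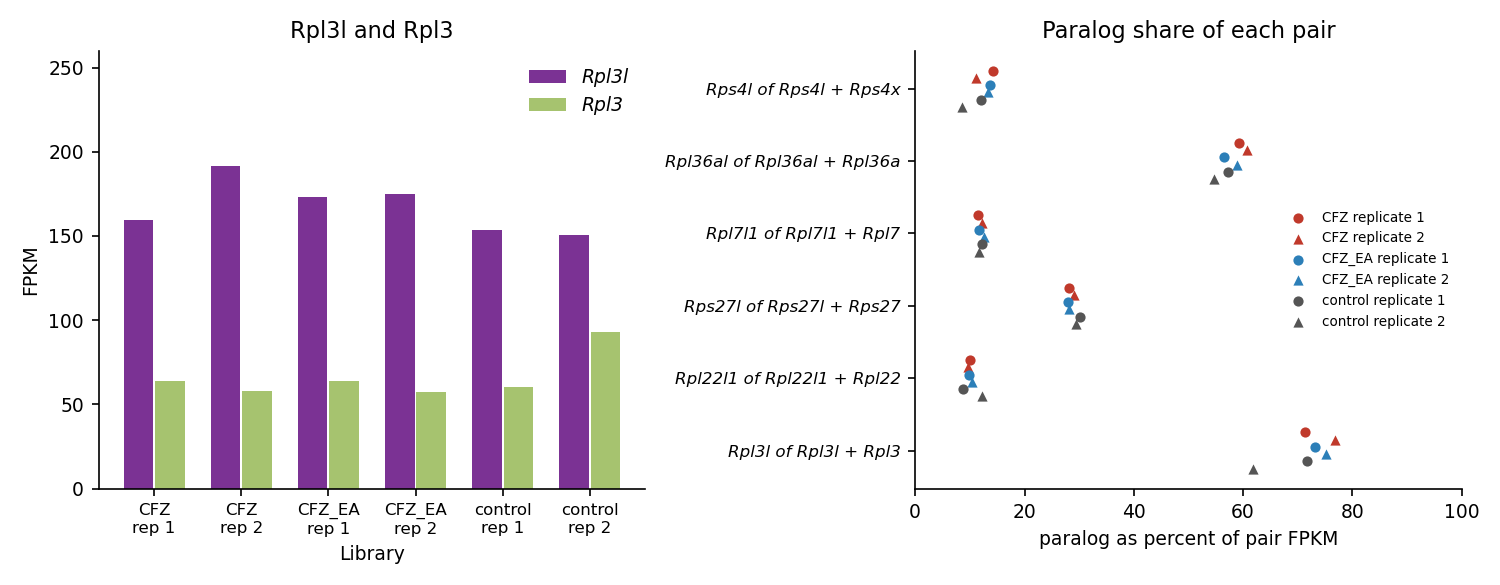
Left, FPKM of Rpl3l (purple) and Rpl3 (green) in each library. Right, the paralog's percent of the summed FPKM of each of 6 pairs, with 1 point per library (circles replicate 1, triangles replicate 2; red CFZ, blue CFZ_EA, grey control); the Rpl3l share is lowest in control replicate 2 at 61.8%.

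Pseudogene copies held part of the family's counts. The coding sequences of the members were searched against the transcripts of all listed genes. Kept as copies were only genes outside the set with a pseudogene type or a -ps symbol, and other matches were dropped. Copies needed at least 90% identity over at least 80% of the coding sequence. Under this rule 616 copies of 73 members were kept, 612 of them of a pseudogene type. These held 12.7% and 12.2% of the combined counts in CFZ, 12.4% and 12.3% in CFZ_EA and 12.7% and 12.3% in control. For 50 members they held under 5%, and the median was 3.26%. They held most of the counts of Rpl21 (89.3%), Rpl17 (84.8%), Rpl7a (80.3%) and Rps12 (54.2%). The copy Rpl21-ps15, with 99.4% identity, had a mean of 223 FPKM, against 10.4 FPKM for Rpl21. Rps10-ps2 had 189 FPKM, against 74.3 FPKM for Rps10. The level of these members is therefore uncertain.

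Adding the copies to their parents left the whole set in place and altered these few members. Over the 89 genes the median log2 fold change was -0.02 for CFZ against control, -0.09 for CFZ_EA against CFZ and -0.10 for CFZ_EA against control, and no member passed in edgeR. For CFZ against control 7 members moved by over 0.1, most of all Rpl7a, which was at -0.02 with copies and 0.49 alone. Rpl21 was at 0.12 with copies and Rpl17 at -0.11, both nearer to 0 than alone. Rps12 moved away from 0, to -0.37 with copies and -0.06 alone for CFZ against control, and to -0.33 with copies and -0.07 alone for CFZ_EA against control. The Rps12 copies held 199 scaled CPM in control replicate 2 and 96.7 to 117 in the other libraries, control replicate 1 among them. Their highest by mean level, Rps12-ps3, is typed as protein coding and had 330 FPKM in control replicate 2, against 97.9 to 179 elsewhere. Rps10 in control replicate 1 had 110 scaled CPM, against 188 to 244 in the other 5 libraries, while its copies had 99.8 there and 100 to 133 elsewhere.

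**Figure D5:**
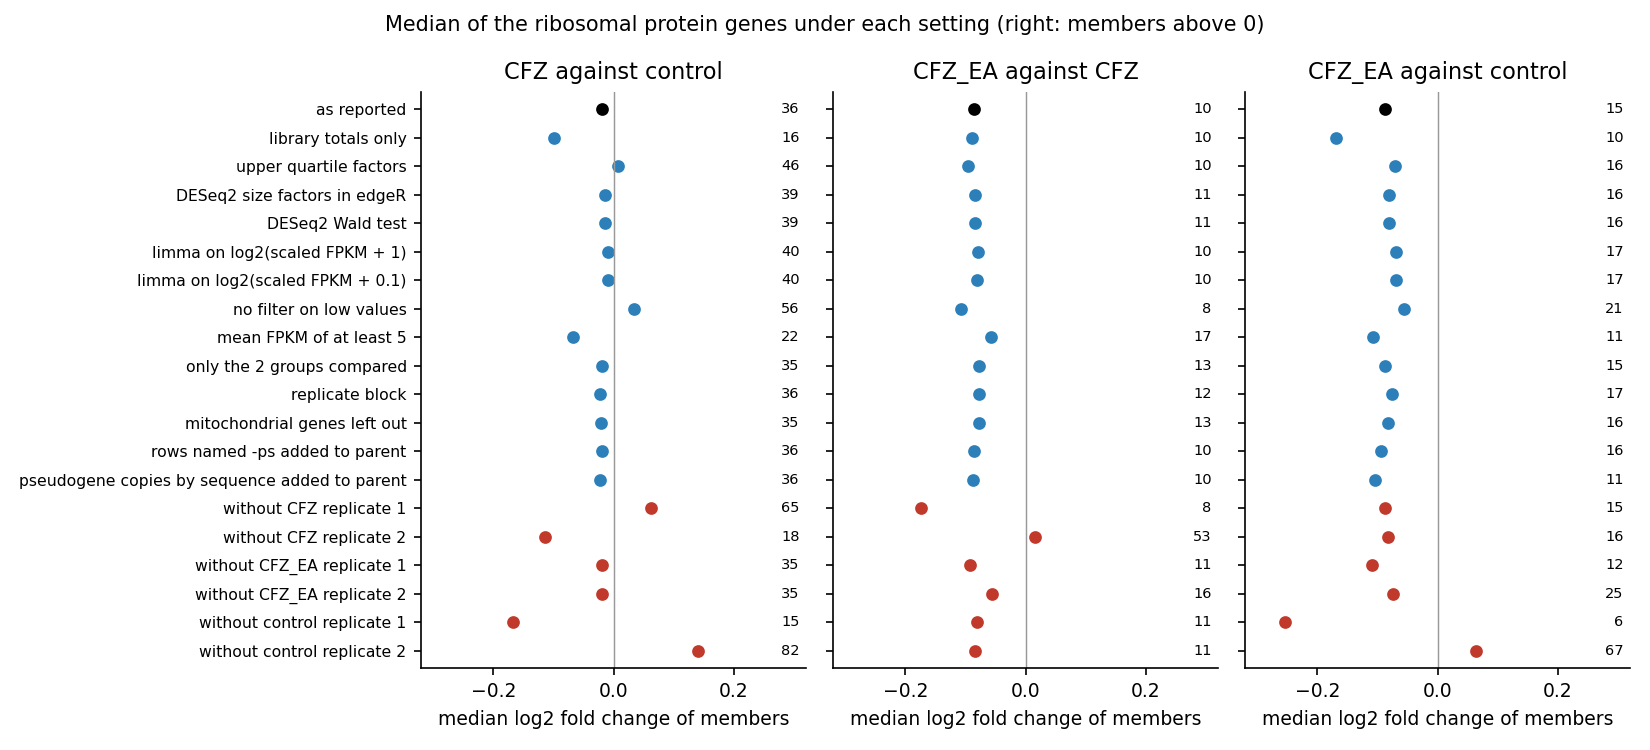
Median log2 fold change of the ribosomal protein genes (x axis) under the reported fit (black), 13 other settings (blue) and with each library left out (red), with the number of members above 0 at the right of each row. The median for CFZ against control, -0.02 as reported, lies above 0 without control replicate 2 (0.14), without CFZ replicate 1 (0.06), with no filter on low values (0.03) and with upper quartile factors (0.01).

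Genes that share the tract, the assembly line or the fate of ribosomal proteins were described from lists named by role. Fau and Rack1, ribosomal proteins whose symbols the rule does not match, had log2 fold changes of -0.16 ± 0.17 and -0.09 ± 0.17 for CFZ against control (SE). Of 30 initiation factors 19 were above 0 in that comparison and of 9 elongation factors 2, with medians of 0.04 and -0.01. No gene of these or of the following lists passed at an adjusted p of 0.05 in any comparison with edgeR. Eef1a1, the general elongation factor, had 296 and 277 FPKM in CFZ, 288 and 326 in CFZ_EA and 319 and 554 in control (log2 fold change for CFZ against control -0.54 ± 0.23, adjusted p = 0.651). Eef1a2, its form in adult muscle and neurons, had 770 and 789 FPKM in CFZ, 846 and 843 in CFZ_EA and 773 and 694 in control.

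Among 10 other messages with TOP tracts 6 were below 0 for CFZ against control (49.5% of all tested genes were above 0). Of these, 2 had an unadjusted p under 0.05 in edgeR, when 5.9% of all tested genes were lower and 1.82% higher at that p. Other lists held such genes too. Higher were 2 quality control, 1 biogenesis and 2 mitochondrial ribosomal genes, and lower were 1 quality control gene, 1 p53 target and 1 regulator of these messages. Pabpc1, the poly(A)-binding protein, had 6.48 and 5.81 FPKM in CFZ, 7.35 and 8.44 in CFZ_EA and 8.75 and 12 in control (-0.69 ± 0.15, SE, adjusted p = 0.608). Vim, an intermediate filament of fibroblasts and other mesenchymal cells, was at -1.37 ± 0.47 (adjusted p = 0.608), and fibroblast markers moved the same way, as given above. Of 9 tested regulators of these messages 4 were above 0. Larp1 had 2.91 and 8.35 FPKM in CFZ, 3.92 and 9.42 in CFZ_EA and 8.91 and 9.42 in control, so that 1 library of each carfilzomib-treated group was low.

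Assembly and quality control genes were spread on both sides of 0. Of 53 tested ribosome biogenesis genes 31 were above 0 for CFZ against control (median 0.03), of 14 RNA polymerase I genes 8 (0.10) and of 19 chaperones and importers of ribosomal proteins 13 (0.05). Riok3, a kinase of small subunit maturation, had 2.68 and 2.72 FPKM in CFZ, 2.98 and 3.11 in CFZ_EA and 1.54 and 1.71 in control (0.79 ± 0.13, adjusted p = 0.547, edgeR). Both treated groups lay above both controls. Of 26 quality control genes 18 were above 0. Pelo, which with a partner splits stalled ribosomes, had 4.23 and 4.28 FPKM in CFZ, 8.18 and 7.97 in CFZ_EA and 10.0 and 9.09 in control. The log2 fold change of Pelo was -1.11 ± 0.16 for CFZ against control (SE, adjusted p = 0.518) and 0.93 ± 0.16 for CFZ_EA against CFZ (adjusted p = 0.615), so neither passed. Rnf14, a ubiquitin ligase that acts on stalled ribosomes, was at 0.58 ± 0.13 for CFZ against control (adjusted p = 0.608). Of 12 p53 targets 6 were above 0 and 6 below, with a median of -0.03.

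Mitochondrial ribosomal proteins, which build the separate ribosome of the organelle, are given for comparison. Of 78 such genes 72 were above 0 for CFZ against control, with a median log2 fold change of 0.18. For CFZ_EA against CFZ 11 were above 0 (median -0.10) and for CFZ_EA against control 61 (0.08). They summed to 2354 and 2515 FPKM in CFZ, 2263 and 2247 in CFZ_EA and 2259 and 2235 in control. The 2 control libraries thus lay close together in the mitochondrial sum and 1.36 times apart in the cytosolic sum, and 5 of the 78 genes were highest in control replicate 2. None passed the test, and the difference between the 2 sets was not tested.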

How the data were processed

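Heart RNA (integrity number over 7) went through oligo(dT) selection 2 times, and the dUTP method marked the strand before paired sequencing of 150 bases, per the labels' protocols. The submitters' processing notes list GRCm38 with StringTie 1.3.4d, HISAT2 2.0.4 and cutadapt 1.9. They do not give an annotation release or say whether strand entered the counting. The authors deposited FPKM values and estimated counts, per the file headers. The estimated counts were rounded here to whole numbers. Of counts between 1 and 20, 42.2% to 43.3% were divisible by 4 (25% by chance), so they may not be tallies of whole fragments. Counting error may then be larger than the counts alone give, which was not tested. Library totals ran from 50013990 to 75742448.

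One edgeR 4.0.16 quasi-likelihood model (R 4.3.3) was fitted to the 10329 genes at or above the FPKM minimum of 1. It had TMM factors (0.955 to 1.08), group as the only term and 3 residual degrees of freedom. Calls needed a p under 0.05 after Benjamini-Hochberg adjustment over all tested genes. Standard errors come from that fit, and centred log2 CPM used a prior count of 2. Alternatives were DESeq2 1.42.0, limma 3.58.1 on log2(scaled FPKM + 1) or + 0.1, other scalings and filters, the replicate block and each library left out. The steps were tested on simulated counts. Copies were sought with blastn 2.17.0 in GENCODE M21 transcripts (GRCm38). All 26835 IDs matched, with the same start and end for 76 members. Transcript starts come from RefSeq.

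Named per comparison were the 5 highest and 5 lowest members. The 5 highest and lowest by level, the paralog pairs, Rpl5, Rpl11, Rplp0, Rplp1, Rplp2, Rpsa and Rps6 were named too, with up to 4 genes of each other list by smallest p. Further genes, such as Rps27rt, Rps10, Rps12 and Larp1, were named after their values were seen. The members and lists were chosen with earlier results of these data known.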

Additional observations from a re-analysis of the deposited data

How the results depend on the processing

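No member was called under any edgeR or limma alternative; DESeq2's Wald test called 1 member each for CFZ against control (Rps25, 0.59) and CFZ_EA against control (Rps2, -0.50). The number of members above 0 for CFZ against control was 16 with library totals only, 56 without a filter on low values and 22 of 85 at a mean FPKM of at least 5. For CFZ_EA against CFZ it was 17 of 85 at that filter. The median of all tested genes for CFZ against control, -0.0034 as reported, moved with the setting as well. It was -0.0663 with library totals only (members -0.0997), -0.0251 without a filter (members 0.0345) and 0.0034 with the filter at 5 (members -0.0677). Leaving out 1 library gave 15 to 82 members above 0 and medians of -0.17 to 0.14 for CFZ against control, 8 to 53 and -0.17 to 0.02 for CFZ_EA against CFZ, and 6 to 67 and -0.25 to 0.0644 for CFZ_EA against control. The cause was not tested. With pseudogene copies added to the parent, a setting chosen after seeing the data, Rpl7a was at -0.0226 for CFZ against control and -0.14 for CFZ_EA against control, and for CFZ_EA against CFZ Rps13 was at -0.10 (also -0.10 with -ps symbols added) and Rpl17 at -0.0189 (-0.0158). Rpl3l for CFZ_EA against CFZ was at 0.019 with the filter at 5. Leaving out 1 library for CFZ_EA against CFZ gave -0.17 to 0.32 for Rpl11, -0.22 to 0.40 for Rps13, -0.0608 to 0.18 for Rps3a3, -0.0438 to 0.33 for Rpl17, -0.43 to 3.49 for Rpl29 and -0.18 to 0.19 for Rpl3l, and -0.27 to 0.76 for Rpl7a for CFZ_EA against control. Same-numbered libraries did not deviate together (correlations of -0.07, 0.08 and -0.05), and with the replicate block 0 members were called, with 36, 12 and 17 above 0. The median standard error was 0.16 with 2 libraries a group, so log2 differences of that size were not detectable. Larger ones did not pass in edgeR either: Rps25, at 0.59 ± 0.13 (SE) for CFZ against control, had an adjusted p of 0.608.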
